A study of Mus musculus with 4 samples.

Results

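The transcripts of 10 regulators of mRNA decay in T cells were followed over the first 3 h of induced Treg (iTreg) culture, in WT cells and in cells that lack the Nr4a nuclear receptors (Nr4a-TKO). They were the 3 tandem zinc finger genes Zfp36, Zfp36l1 and Zfp36l2, the Regnase-1 gene Zc3h12a, the 2 Roquin genes Rc3h1 and Rc3h2, and the 4 genes Btg1, Btg2, Tob1 and Tob2 of the BTG/Tob family. The 10 genes were read from all 19 array probes that carried their names, out of 32565 named genes on the array.

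The naive CD4+ T (naive T) cells came from spleen and lymph nodes of irradiated C57BL/6J Rag2-/- recipients of bone marrow, and were sorted as Ly5.2+, CD4+, CD25low, CD44low, CD62L-high and Foxp3-. WT cells came from recipients of WT marrow alone. Nr4a-TKO cells, which carry floxed Nr4a1, floxed Nr4a2 and Nr4a3-/- alleles, came from recipients of Nr4a-TKO marrow mixed with Ly5.1+ WT marrow, so that genotype and kind of chimera cannot be told apart. The Nr4a-TKO marrow also carried the Foxp3 hCD2-hCD52 knock-in reporter, while for WT marrow the reporter, and for the floxed alleles the Cre, are not given in the sources used here. For iTreg, naive T cells were cultured for 3 h with plate-coated anti-CD3 at 2 µg/ml, anti-CD28 at 0.5 µg/ml, IL-2 at 10 ng/ml, TGF-β1, anti-IFN-γ and anti-IL-4. The labels name TGF-β1 doses of 0.2 and 0.5 ng/ml and do not say which of them these cells received. The 4 groups, naive T and iTreg 3 h of either genotype, had 1 single-colour array each, and the age of the animals is not in the labels. No group had a replicate, so differences are given as values with no test. Values are normalized signals on the log2 scale, on which a difference of 1 is a 2-fold difference, and the level of a probe is not compared with that of another probe.

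The amount of a protein that a cell makes depends on how long its mRNA lasts, and mRNA decay usually starts with the shortening of the poly(A) tail by deadenylases, chiefly the CCR4-NOT complex. Zfp36 family proteins bind AU-rich elements in the 3′ ends of cytokine and other short-lived transcripts and bring CCR4-NOT to them, whereas Roquin proteins recognise stem-loops and do the same, and Regnase-1 cuts transcripts at such stem-loops. BTG and Tob proteins bind the deadenylase subunits of CCR4-NOT directly, and Btg1 and Btg2 are known for keeping naive T cells quiescent.

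The AU-rich element that Zfp36 family proteins recognise is shown first, since the probe of Zfp36 itself holds it. The heptamer TATTTAT, written as DNA and searched on the given strand of the probe sequences, occurred in 1.08% of the 56605 probes on the array, and in 2 of the 19 probes of the 10 genes. These were the probe of Zfp36 and the dimmer probe of Btg2, and 30 bases of each are printed below with the heptamers in capitals. The Zfp36 probe lies on chr7:29161963-29162022 and the Btg2 probe on chr1:135973828-135973887, both on the minus strand of mm9. The shorter pentamer ATTTA occurred in 8.08% of all probes, and in 1 probe each of Zfp36, Zfp36l1, Zc3h12a, Btg1 and Btg2. A match is a description of the letters and not of a site in use.
Zfp36 probe: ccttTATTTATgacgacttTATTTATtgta
Btg2 probe: ttaaaatgaagagcTATTTATacatgtctt

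The promoters of 5 of the genes are shown next, since they hold motifs of factors that respond to T cell signals and since Btg1, Btg2 and Tob1 were lower together at 3 h. The windows are the 250 bases before the transcript start in the RefSeq annotation of GRCm38.p6, read on the gene's strand, and 9 of the 10 genes had one. The windows were those of Zfp36 (minus strand, chr7:28379229-28379478), Zfp36l1 (minus strand, chr12:80113014-80113263), Btg1 (plus strand, chr10:96616751-96617000), Btg2 (minus strand, chr1:134079156-134079405) and Tob1 (plus strand, chr11:94211204-94211453). Capitals mark a match on either strand.
Zfp36: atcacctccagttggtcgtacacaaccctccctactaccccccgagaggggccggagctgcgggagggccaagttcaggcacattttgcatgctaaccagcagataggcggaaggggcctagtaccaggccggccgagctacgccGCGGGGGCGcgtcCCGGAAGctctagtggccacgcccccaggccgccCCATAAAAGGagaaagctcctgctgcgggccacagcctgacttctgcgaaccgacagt
Zfp36l1: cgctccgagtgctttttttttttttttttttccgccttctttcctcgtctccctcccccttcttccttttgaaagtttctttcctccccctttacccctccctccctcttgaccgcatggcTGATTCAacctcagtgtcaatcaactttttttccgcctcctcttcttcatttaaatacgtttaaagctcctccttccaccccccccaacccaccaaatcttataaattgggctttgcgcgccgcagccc
Btg1: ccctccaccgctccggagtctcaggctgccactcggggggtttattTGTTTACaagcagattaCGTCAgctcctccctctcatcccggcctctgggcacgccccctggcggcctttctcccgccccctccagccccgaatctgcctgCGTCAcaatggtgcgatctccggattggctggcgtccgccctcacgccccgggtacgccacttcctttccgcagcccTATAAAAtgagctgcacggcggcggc
Btg2: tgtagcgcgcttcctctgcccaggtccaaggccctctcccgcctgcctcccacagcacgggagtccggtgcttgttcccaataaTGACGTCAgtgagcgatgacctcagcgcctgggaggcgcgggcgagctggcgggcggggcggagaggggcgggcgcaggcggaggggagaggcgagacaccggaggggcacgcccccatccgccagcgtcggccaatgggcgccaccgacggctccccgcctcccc
Tob1: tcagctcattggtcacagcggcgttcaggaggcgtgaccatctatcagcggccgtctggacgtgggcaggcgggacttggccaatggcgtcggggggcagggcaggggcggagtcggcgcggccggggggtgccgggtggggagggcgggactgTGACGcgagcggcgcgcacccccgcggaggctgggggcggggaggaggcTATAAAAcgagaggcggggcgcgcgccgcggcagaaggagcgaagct

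In the Zfp36 window the capitals are, in order, an Egr motif (GCGTGGGCG or GCGGGGGCG, in 3.06% of all 32851 promoter windows), an Ets motif (CCGGAAG, in 6.91%) and a CArG box, the motif of serum response factor (in 1.47%). The Zfp36l1 window holds an AP-1 motif (TGANTCA, in 6.75%), as does that of Rc3h1. The Btg2 window holds a full cAMP response element (TGACGTCA, in 1.55%). Its core TGACG, which lies within the full element and was found in 17.8% of all windows, is also in the windows of Btg1, at 2 places, and Tob1. Ahead of them the Btg1 window holds a FoxO motif (GTAAACA, in 3.17%), and the windows of Btg1 and Tob1 a TATA motif (TATAAAA, in 4.98%). None of the 9 windows held the NBRE that Nr4a proteins bind as monomers (AAAGGTCA, in 1.34%) or an NF-kB consensus (in 5.0%). The absence of a match says only that these letters are not in these windows, and a match is not a site in use. Of the other genes lower at 3 h, Zfp36 had no TGACG core in its window and Zfp36l2 had no window. Whether any motif bears on the differences at 3 h was not tested.

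On the arrays, between 64.9% and 67.6% of probes were well above local background and no spot was saturated. From repeated spots of 1 probe, 2 arrays were reckoned to differ with an SD of 0.18 on the log2 scale, which was 0.33 for probes whose level was under 6 and 0.17 for those above. This SD covers the array and not the mice. Probes of the targeted genes do not mark the array labelled Nr4a-TKO throughout, since the Nr4a1 probe read 0.48 higher and both Nr4a2 probes read 1.37 and 1.38 higher on it at 3 h, while 2 of the 3 Nr4a3 probes differed by -1.85 and -1.46. The genotypes below are therefore those of the labels. All 8 markers of naive CD4 T cells were well above background on every array, and their median difference at 3 h was -1.38 in WT and -1.53 in Nr4a-TKO. The 4 B cell markers were above background on every array too, with mean levels of 7.04 on WT naive T, 7.21 on Nr4a-TKO naive T, 6.07 on WT iTreg 3 h and 6.68 on Nr4a-TKO iTreg 3 h. Foxp3, the defining factor of Treg cells, differed by -1.31 between Nr4a-TKO and WT in naive T and by -1.35 at 3 h. The mean of both Treg markers, Foxp3 and Ikzf2, was 7.19 and 5.85 on the naive T arrays of WT and Nr4a-TKO, and 6.75 and 6.15 on those at 3 h. In naive T, Nr4a-TKO minus WT was -2.16 for S100a4, a marker of memory T cells, and -2.69 for the myeloid marker Cd14. The other memory T markers, Cd44 and Cxcr3, differed by 0.22 and -0.59 there. The other myeloid markers, Lyz2, Itgam and Csf1r, differed by -0.02, 0.08 and 0.12. At 3 h the memory T markers Cd44 and Cxcr3 differed by 1.55 and 1.3 between Nr4a-TKO and WT, and S100a4 by -0.36. The part of such cells in the values below was not tested, and fewer cells of a type and less RNA per cell cannot be told apart in bulk samples.

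Of the 19 probes, 18 were well above background on all 4 arrays, and the exception was 1 of the 3 Tob2 probes, which stayed near background throughout. Of the 10 genes, 4 had 1 probe and 6 had several, of which the brightest on average stands for the gene in counts. In WT, 2 genes were more than 2-fold higher at 3 h than in naive T, beside 8.4% of the 23246 genes measured, and 2 were more than 2-fold lower, beside 8.55%. In Nr4a-TKO, none was more than 2-fold higher, beside 7.78% of the 23731 genes measured, and 3 were more than 2-fold lower, beside 7.99%. The median over the 10 genes was -0.3 in WT and -0.12 in Nr4a-TKO, beside -0.05 and -0.02 over all genes. With these probes, all 10 genes differed from naive T in the same direction in both genotypes, with 5 higher and 5 lower at 3 h in each. So did 17 of the 18 measured probes, as drawn in the plot of signal by gene. The share of all genes with the same direction in both genotypes was not counted, so these counts do not set the 10 genes apart from others. For some genes below, both arrays of naive T lie on 1 side of both arrays at 3 h. The share of all genes that separate so was not counted either. The arrays of a stage differ in genotype and are not replicates.

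**Figure D1:**
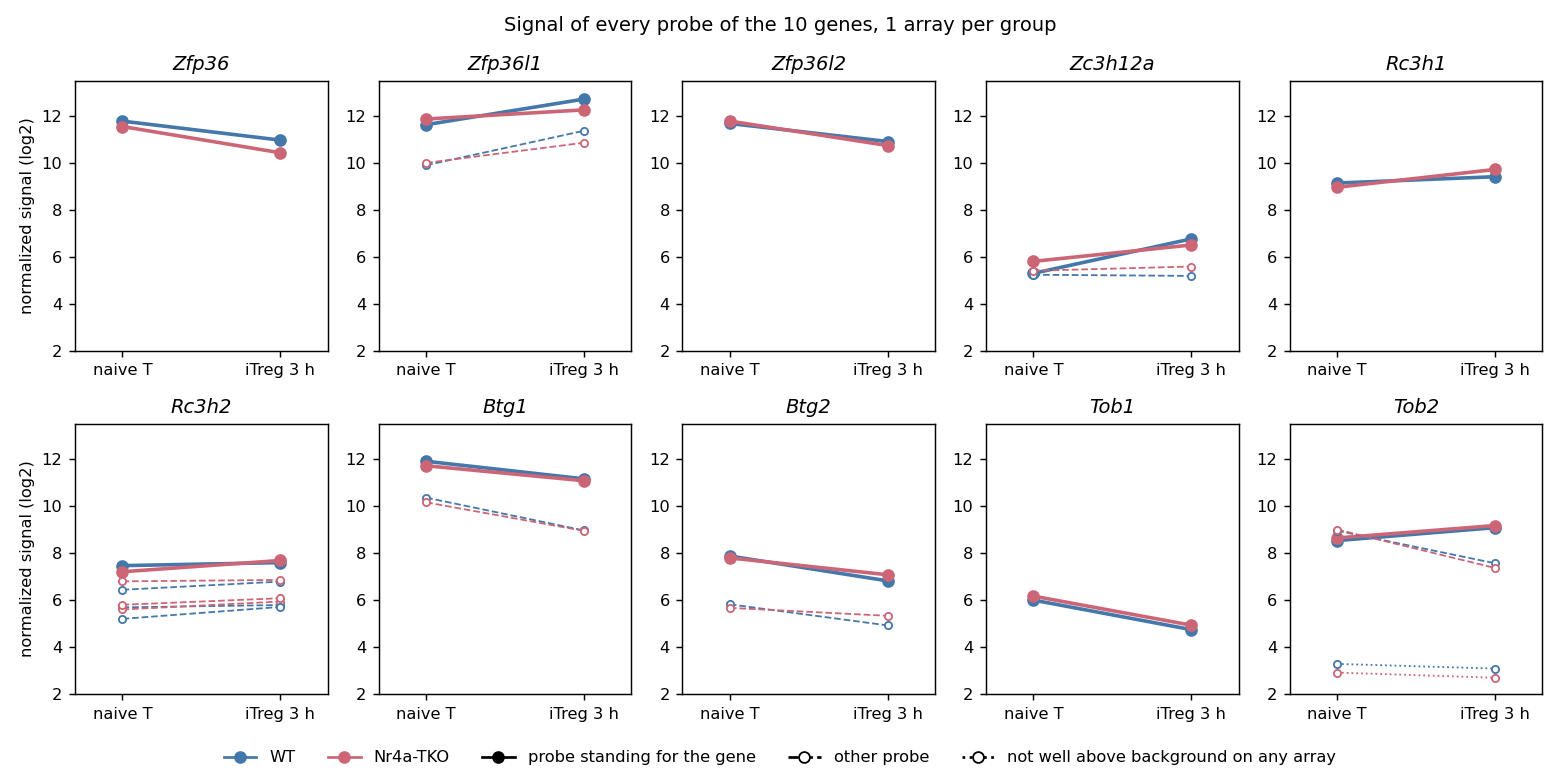
Normalized log2 signal (vertical axes) of every probe of the 10 genes on the arrays of naive T and iTreg 3 h cells (horizontal axes), with lines joining the 2 arrays of WT (blue) and of Nr4a-TKO (red). Filled points are the probe standing for the gene, open points the other probes. For Tob2 the filled probe differs by 0.55 in WT and an open probe by -1.39.

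Among the AU-rich element binding proteins, Zfp36, which encodes tristetraprolin, was lower at 3 h in both genotypes. Its probe read 11.79 on WT naive T, 11.56 on Nr4a-TKO naive T, 10.98 on WT iTreg 3 h and 10.44 on Nr4a-TKO iTreg 3 h. Both arrays of 3 h lay below both arrays of naive T, and the array of Nr4a-TKO at 3 h was the lowest of the 4. The difference from naive T was -0.81 in WT, at which or below which lay 11.4% of probes, and -1.12, or 2.18-fold lower, in Nr4a-TKO.

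Zfp36l2, a relative with a known part in thymocyte development, gave nearly the same picture. Its levels were 11.69 and 11.79 on the naive T arrays of WT and Nr4a-TKO, and 10.92 and 10.75 on those at 3 h. It was therefore 1.7-fold lower at 3 h in WT and 2.05-fold lower in Nr4a-TKO.

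Zfp36l1, the third relative, went the other way. Its brighter probe, on chr12:81210866-81210925 (mm9), read 11.64 on WT naive T, 11.88 on Nr4a-TKO naive T, 12.73 on WT iTreg 3 h and 12.27 on Nr4a-TKO iTreg 3 h. Both arrays of 3 h were above both of naive T, with the highest value in WT. The difference was 1.09, or 2.13-fold, in WT and 0.4, or 1.32-fold, in Nr4a-TKO.

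Its second probe, on chr12:81208803-81208862, had the same order. It read 9.91 on WT naive T, 10.01 on Nr4a-TKO naive T, 11.38 on WT iTreg 3 h and 10.87 on Nr4a-TKO iTreg 3 h, which gives differences of 1.48 in WT and 0.86 in Nr4a-TKO. With both probes the WT difference was past 2-fold and the Nr4a-TKO difference was not, and the Nr4a-TKO difference minus that of WT was -0.69 with the brighter probe and -0.62 with the other. The SD of such a difference of differences from repeated spots was 0.25.

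Zc3h12a encodes Regnase-1, an endonuclease that limits T cell activation and is itself cut by the paracaspase Malt1. The probe on its RefSeq transcript, on chr4:124795870-124795929 (mm9), read 5.3 on WT naive T, 5.81 on Nr4a-TKO naive T, 6.77 on WT iTreg 3 h and 6.51 on Nr4a-TKO iTreg 3 h. Both arrays at 3 h were again above both arrays of naive T. The difference was 1.48, or 2.78-fold, in WT, a value that 96.0% of genes did not exceed, and 0.69, or 1.62-fold, in Nr4a-TKO.

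The other Zc3h12a probe, on chr4:124803611-124803670, was designed on another transcript record and did not follow. It read 5.24 and 5.41 on the naive T arrays of WT and Nr4a-TKO and 5.19 and 5.59 on those at 3 h, and its differences of -0.05 and 0.18 were within the 0.33 that repeated spots give at this level. Both probes were dim, and the WT difference of the first depended on the background correction and the probe rule, as given at the end.

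The Roquin genes stood nearer to their naive level. Rc3h1, the gene mutated in sanroque mice, read 9.15 on WT naive T, 8.97 on Nr4a-TKO naive T, 9.42 on WT iTreg 3 h and 9.73 on Nr4a-TKO iTreg 3 h. The arrays at 3 h were both above those of naive T, by 0.27 in WT and by 0.76 in Nr4a-TKO, and neither difference reached 2-fold.

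Rc3h2, its paralogue, had 4 probes, all well above background. The brightest read 7.47 on WT naive T, 7.21 on Nr4a-TKO naive T, 7.6 on WT iTreg 3 h and 7.69 on Nr4a-TKO iTreg 3 h, so that the 4 arrays lay within 0.48 of each other. Over the 4 probes, all differences from naive T were above 0, between 0.1 and 0.51 in WT and between 0.05 and 0.48 in Nr4a-TKO.

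Of the BTG/Tob family, Btg1, Btg2 and Tob1 were all lower at 3 h in both genotypes. For Btg1, the brighter probe, on chr10:96082065-96082124 (mm9), read 11.92 on WT naive T, 11.73 on Nr4a-TKO naive T, 11.17 on WT iTreg 3 h and 11.09 on Nr4a-TKO iTreg 3 h. The probe on chr10:96085358-96085417, on the same strand and further along the gene, read 10.37, 10.17, 8.97 and 8.95 on the same 4 arrays. In both probes, each array of naive T lay above each array at 3 h. The size depended on the probe, with differences of -0.75 in WT and -0.64 in Nr4a-TKO for the first and of -1.39 and -1.22 for the second, so that only the second was past 2-fold.

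Btg2, a gene that p53 is known to induce, was 2.09-fold lower at 3 h in WT and 1.64-fold lower in Nr4a-TKO. The values behind this were 7.88 on WT naive T, 7.8 on Nr4a-TKO naive T, 6.82 on WT iTreg 3 h and 7.08 on Nr4a-TKO iTreg 3 h. The dimmer probe, which holds the heptamer shown above, read 5.82, 5.67, 4.92 and 5.33 on the same arrays. Its order was the same, with differences of -0.9 in WT and -0.34 in Nr4a-TKO, the second of which is close to the 0.33 of repeated spots at this level.

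Tob1, known as a brake on T cell proliferation, had the lowest difference in both genotypes among the probes standing for the 10 genes. Another probe was lower still for Btg1 in WT, at -1.39, and for Tob2, at -1.39 in WT and -1.64 in Nr4a-TKO. The only Tob1 probe read 6.0 on WT naive T, 6.17 on Nr4a-TKO naive T, 4.74 on WT iTreg 3 h and 4.93 on Nr4a-TKO iTreg 3 h. The naive T arrays lay above those at 3 h, by 2.39-fold in WT and 2.37-fold in Nr4a-TKO. Only 5.9% of genes in WT and 5.5% in Nr4a-TKO had differences as low.

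Tob2 gave a different answer with each of its measured probes. The probe on the RefSeq transcript, on chr15:81680205-81680264 (mm9), read 8.54 on WT naive T, 8.65 on Nr4a-TKO naive T, 9.09 on WT iTreg 3 h and 9.18 on Nr4a-TKO iTreg 3 h. The probe on chr15:81686235-81686294, which lies 5′ of it on the same minus strand and was designed on a cDNA record, read 8.96, 9.01, 7.57 and 7.37. The first was higher at 3 h by 0.55 in WT and by 0.53 in Nr4a-TKO, and the second was lower by 2.62-fold and 3.11-fold. Both patterns were alike in the 2 genotypes. Whether these probes lie in exons, introns or untranslated regions of one transcript was not analysed here, because no annotation on mm9 was used.

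**Figure D2:**
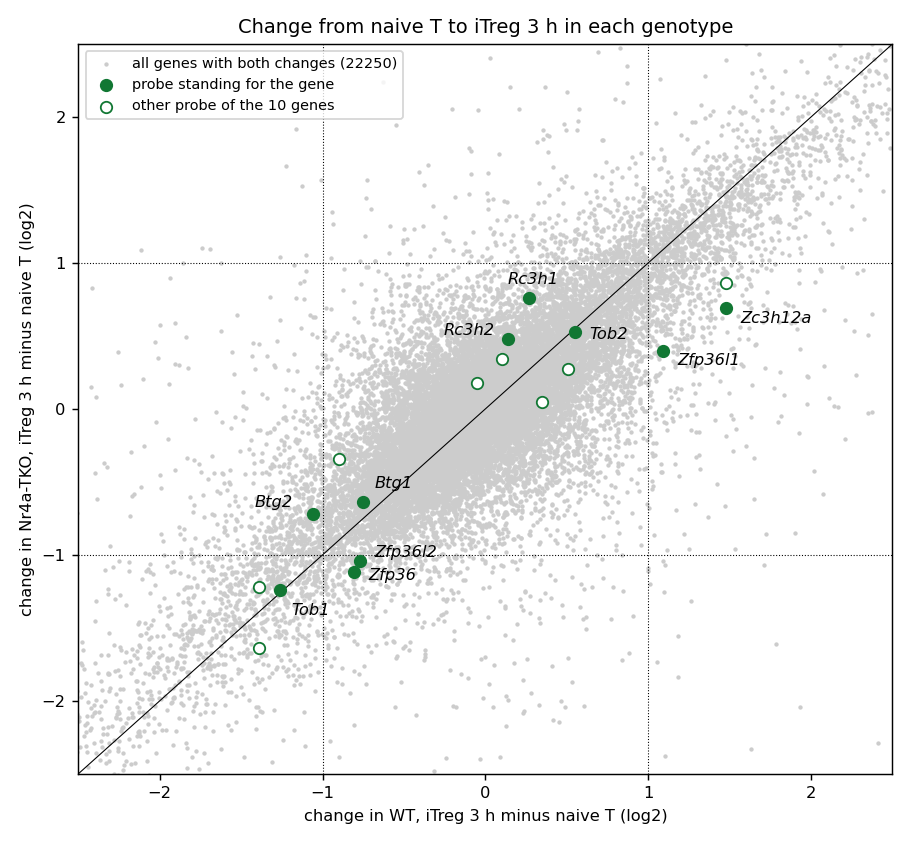
Difference from naive T to iTreg 3 h in WT (horizontal axis, log2) and in Nr4a-TKO (vertical axis, log2), with the 22250 genes measured in both as grey points, the 10 genes as filled green points and their other probes as open points. Dotted lines mark 2-fold and the solid line equal differences. Zc3h12a and Zfp36l1 sit to the right of the WT line at 1.48 and 1.09, and at 0.69 and 0.4 on the vertical axis. The axes end at 2.5, and genes beyond are not drawn.

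The difference in Nr4a-TKO minus that in WT was below 0 for 5 of the 10 genes and above 0 for the other 5, with a median of 0.0, beside 0.02 over all 22250 genes. It was lowest for Zc3h12a at -0.78 and Zfp36l1 at -0.69, and highest for Rc3h1 at 0.48. The other Zc3h12a probe had the opposite sign, at 0.24. For Tob1 and Tob2 it was 0.01 and -0.02. All 3 tandem zinc finger genes were on the low side, since Zfp36 was at -0.31 and Zfp36l2 at -0.27, values close to the SD of 0.25 from repeated spots. Both Roquin genes were on the high side, with 0.34 for Rc3h2, although its probes ranged from -0.3 to 0.34.

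Between the genotypes, no gene of the 10 was past 2-fold at either stage. In naive T, 1.93% of the 23129 genes measured were more than 2-fold higher in Nr4a-TKO and 1.69% more than 2-fold lower. At 3 h these shares were 1.74% and 1.94% of 23518 genes. The median over the 10 genes was 0.01 in naive T and 0.0 at 3 h, and their range was from -0.26 to 0.52 and from -0.54 to 0.3.

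With the narrower limit of 2 SDs of repeated spots at the level of the probe, 1 of the 10 genes differed in naive T, beside 13.3% of all genes, and 2 differed at 3 h, beside 13.2%. In naive T this was Zc3h12a, 1.43-fold higher on Nr4a-TKO. The SD was taken at the mean level over the 4 arrays. Its levels of 5.81 on Nr4a-TKO and 5.3 on WT were both under 6, where with the SD of 0.33 the difference of 0.52 lies within 2 SDs, and the other Zc3h12a probe differed by 0.17. At 3 h these were Zfp36, 1.45-fold lower on Nr4a-TKO, and Zfp36l1, 1.38-fold lower, and the second Zfp36l1 probe was 1.43-fold lower too. Of all genes, 5.9% were as low as Zfp36 in Nr4a-TKO relative to WT at 3 h, and 7.5% as low as Zfp36l1. The plot of genotype differences shows every probe against this limit. The counts of 1 and 2 in 10 are near the shares over all genes, and the spread between mice was not measured.

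**Figure D3:**
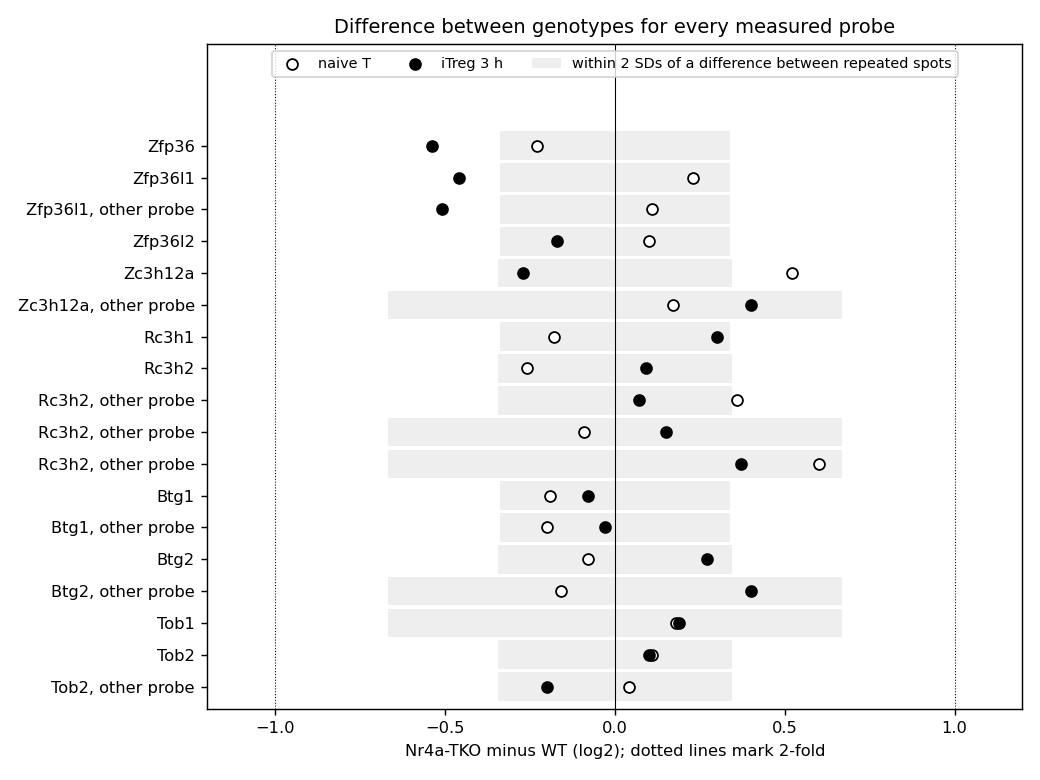
Nr4a-TKO minus WT (horizontal axis, log2) for the 18 measured probes (rows), with open points for naive T and filled points for iTreg 3 h. Grey bars span 2 SDs of a difference between repeated spots on each side of 0. The filled points of Zfp36 and of both Zfp36l1 probes lie left of their bars, at -0.54, -0.46 and -0.51.

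The other genes of mRNA decay were taken from a list of 79, of which 79 were measured in WT and 78 in Nr4a-TKO. At 3 h, 15 stood past 2-fold above naive T and 2 past 2-fold below in WT, and 14 and 2 in Nr4a-TKO. Over all genes the shares were 8.4% above and 8.55% below in WT, and 7.78% and 7.99% in Nr4a-TKO. The median difference was 0.27 in WT and 0.23 in Nr4a-TKO, beside -0.05 and -0.02 over all genes. Between genotypes, none was past 2-fold in naive T, and 1 was more than 2-fold lower and none more than 2-fold higher at 3 h. Over all genes, 1.93% were higher and 1.69% lower in naive T, and 1.74% and 1.94% at 3 h.

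The RNA exosome, which degrades RNA from the 3′ end, and its Ski partners held the most genes past 2-fold. Of 15 such genes, 5 were more than 2-fold higher in WT and 6 in Nr4a-TKO, none was more than 2-fold lower, and the median was 0.71 and 0.75. The catalytic subunit Dis3 read 6.94 on WT naive T, 7.07 on Nr4a-TKO naive T, 9.26 on WT iTreg 3 h and 9.1 on Nr4a-TKO iTreg 3 h, and its differences of 2.33 and 2.03 were the highest of the group. Exosc6 was 1.79 higher in each genotype, Wdr61 1.44 and 1.62 higher in WT and Nr4a-TKO, and Exosc1 1.21 and 1.3 higher. Exosc4 was past 2-fold in WT alone, at 1.15 against 0.75. With the brightest probe, the nuclear subunit Exosc10 was past it in Nr4a-TKO alone, at 1.16 against 0.86, and so was the Ski subunit Ttc37 at 1.33 against 0.29. Among their other probes, the highest WT difference was 1.05 for Exosc10 and 1.16 for Ttc37, past 2-fold in WT too. The lowest difference in WT, -0.43, was that of Dis3l.

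With the brightest probe of each gene, the CCR4-NOT complex, which Zfp36, Roquin and BTG/Tob proteins recruit, stayed nearer to its naive level. Of 12 genes, 1 was more than 2-fold higher in either genotype, and the median was 0.22 in WT and 0.2 in Nr4a-TKO. This gene was the scaffold-associated subunit Cnot11, at 5.83 on WT naive T, 6.3 on Nr4a-TKO naive T, 7.19 on WT iTreg 3 h and 7.69 on Nr4a-TKO iTreg 3 h. The deadenylase subunits Cnot7 and Cnot8, which BTG and Tob proteins bind, differed by 0.4 and 0.21 in WT, and by 0.46 and -0.13 in Nr4a-TKO. With the brightest probes, Cnot3 had the lowest WT difference of the complex, -0.32. Cnot6l and Cnot9 differed by -0.18 and 0.99 in WT, and by -0.53 and 0.68 in Nr4a-TKO. Other Cnot6l probes differed by -1.58 to -0.97 in WT and by -1.2 to -0.71 in Nr4a-TKO. The other Cnot9 probe differed by 1.37 and 0.75. Further probes of the remaining genes of the complex stayed within 2-fold in both genotypes. Of the 5 other deadenylases, Pan3 differed by -1.02 in WT and by -0.8 in Nr4a-TKO, but its other probe by only -0.05 and -0.15. Pde12, which acts in mitochondria, was 1.11 and 0.78 higher. The brightest Noct probe differed by -0.07 in WT and 0.02 in Nr4a-TKO, but its other probes by 1.34 to 1.65 and 1.62 to 1.67.

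Among 17 genes of decapping and 5′ decay, 2 were more than 2-fold higher in each genotype and none lower. They were the Lsm ring genes Lsm2, at 1.42 in WT and 1.07 in Nr4a-TKO, and Lsm7, at 1.1 in both, and the lowest WT difference was -0.55 for the helicase gene Ddx6. None of 8 genes of nonsense-mediated decay was past 2-fold, and the lowest WT difference among them was -0.49 for Smg1. Of 7 genes for other poly(A) and AU-rich element binding proteins, Hnrnpd, which encodes AUF1, was past 2-fold in WT, at 1.07 against 0.86 in Nr4a-TKO. Its other probe was past 2-fold in both genotypes, at 1.35 and 1.19. The lowest of them was Pabpc4 at -0.52 in WT.

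Close relatives of the 10 genes also differed among themselves. Btg3 was higher at 3 h, in contrast with Btg1 and Btg2, at 7.0 on WT naive T, 6.98 on Nr4a-TKO naive T, 8.76 on WT iTreg 3 h and 8.84 on Nr4a-TKO iTreg 3 h. Its other probe differed by 1.36 in WT and 2.04 in Nr4a-TKO. Zc3h12d, a Regnase family gene, read 7.8 on WT naive T, 8.19 on Nr4a-TKO naive T, 9.16 on WT iTreg 3 h and 8.23 on Nr4a-TKO iTreg 3 h. The WT array at 3 h stood above the other 3, with a difference of 1.37 in WT and 0.04 in Nr4a-TKO, and its other probe gave 1.11 and -0.21. N4bp1, another RNase of this kind, was 0.42 higher in WT and 1.04 higher in Nr4a-TKO. Btg4 had the lowest WT difference of the 7 relatives, -0.59.

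Genes whose products act on the 10 proteins were examined last in this list. Malt1, the protease that cuts Regnase-1 and Roquin, was 1.84 higher at 3 h in WT and 2.31 higher in Nr4a-TKO. The kinases Mapkapk2 and Mapkapk3, of which the first is known to phosphorylate tristetraprolin, were 1.11 and 2.44 higher in WT and 1.38 and 3.23 higher in Nr4a-TKO.

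Dusp1, a phosphatase that turns off the p38 kinase upstream of them, was the 1 gene of the list past 2-fold between genotypes. It read 8.9 on WT naive T, 9.4 on Nr4a-TKO naive T, 8.86 on WT iTreg 3 h and 7.01 on Nr4a-TKO iTreg 3 h. The last array stood well below the other 3, and at 3 h Nr4a-TKO was 3.61-fold lower than WT.

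**Figure D4:**
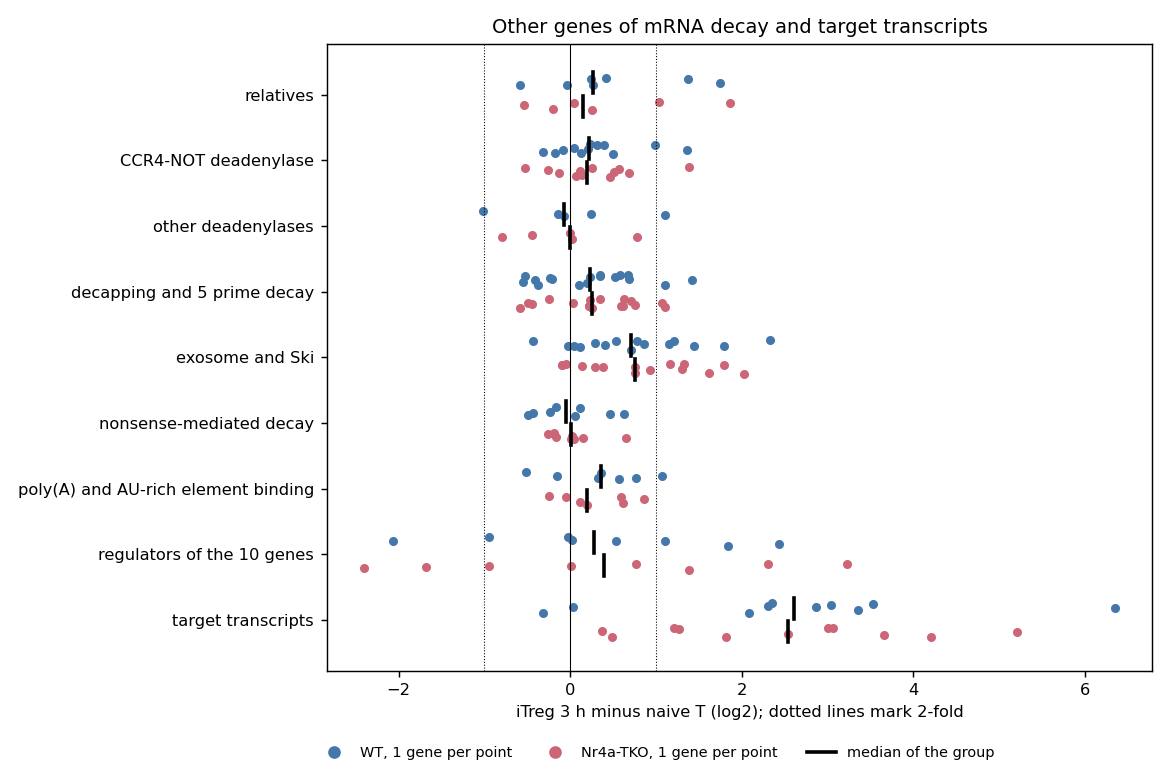
Difference from naive T to iTreg 3 h (horizontal axis, log2) of the other genes of mRNA decay and of known target transcripts (rows), with 1 point per gene, blue for WT and red for Nr4a-TKO, and a black bar at the median of each group. Dotted lines mark 2-fold. The medians of the exosome group stand at 0.71 and 0.75 and those of the target transcripts at 2.61 and 2.54.

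Transcripts that these proteins are known to destabilise were read from a list of 13, and 10 were measured in WT and 11 in Nr4a-TKO. From naive T to 3 h, 8 were more than 2-fold higher in WT, beside 8.4% of all genes, and 9 in Nr4a-TKO, beside 7.78%. None was more than 2-fold lower, beside 8.55% and 7.99%. The median was 2.61 in WT and 2.54 in Nr4a-TKO, beside -0.05 and -0.02 over all genes. The list holds transcripts of genes that T cell receptor signals are known to induce, and synthesis and decay cannot be told apart in steady-state RNA.

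Tnf, a target of Zfp36, was 2.86 higher at 3 h in WT and 3.01 higher in Nr4a-TKO. Icos, a target of the Roquin proteins, was 2.08 and 1.27 higher, and Tnfrsf4, which encodes OX40, 3.04 and 3.66 higher. Nfkbid was 3.53 and 3.06 higher, Rel 2.31 and 2.54, Irf4 6.35 and 5.21, and Myc 2.35 and 1.82. Nfkbiz differed by 0.03 and 0.37, and its other probe by -1.06 in WT and -0.03 in Nr4a-TKO.

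Il2, which encodes the T cell growth factor, was not well above background on WT naive T and read 4.08 on Nr4a-TKO naive T, 7.09 on WT iTreg 3 h and 8.28 on Nr4a-TKO iTreg 3 h. It was thus at least 10.28-fold higher at 3 h in WT and 18.45-fold higher in Nr4a-TKO, and at 3 h Nr4a-TKO was 2.29-fold above WT. Ifng was well above background on Nr4a-TKO iTreg 3 h alone, where it was at least 2.22-fold above WT at that time. Il3 was likewise at least 2.42-fold higher on Nr4a-TKO than on WT at 3 h, where WT was not well above background. Csf2 and Il6 were near background throughout and have no difference. Of the 11 transcripts measured between genotypes at 3 h, these 3, Il2, Ifng and Il3, were more than 2-fold higher on Nr4a-TKO, beside 1.74% of all genes. None was more than 2-fold lower, beside 1.94%. In naive T, Irf4 was 1.25 higher on Nr4a-TKO than on WT. It was the 1 transcript of 10 measured that was past 2-fold there, beside 1.93% of all genes higher and 1.69% lower.

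The values of the 10 genes were recomputed from the same arrays with other background corrections, scalings and probe rules, as drawn in the plot of alternatives. In WT, 9 of the 10 differences kept their direction under each of 7 such alternatives, with Tob2 the exception. Zfp36l1 was past 2-fold in WT under all 7, with values between 1.08 and 1.28. Zc3h12a ranged from 0.71, with the mean of its 2 probes, to 1.66, and Tob1 from -1.52 to -0.57 in WT. Tob2 turned from 0.55 to -0.42 in WT, and from 0.53 to -0.55 in Nr4a-TKO, when its probes were averaged. Nr4a-TKO minus WT at 3 h stayed, for Zfp36, between -0.54 and -0.52, and for Zfp36l1 between -0.49 and -0.39.

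**Figure D5:**
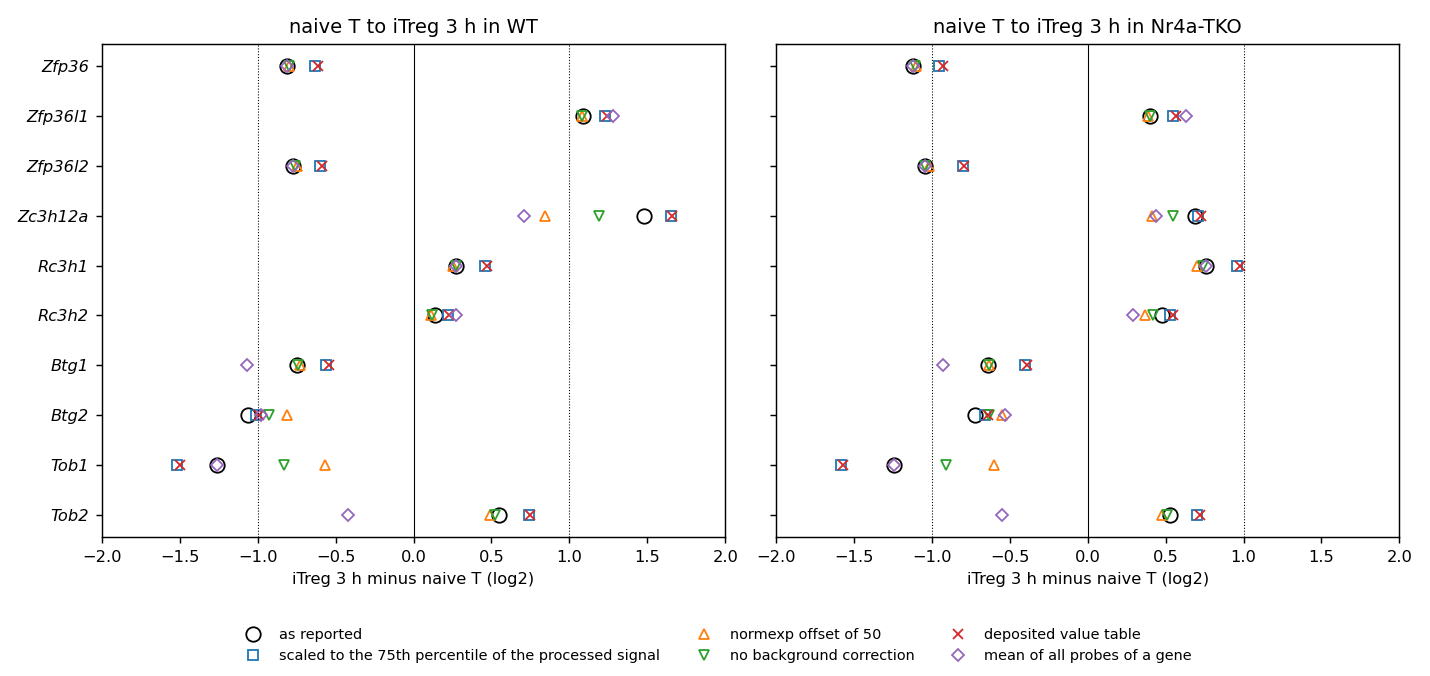
Difference from naive T to iTreg 3 h (horizontal axes, log2) for the 10 genes (rows) in WT (left) and Nr4a-TKO (right), with a circle for the value as reported and other marks for 5 alternatives. Dotted lines mark 2-fold. The marks of Zfp36l1 in WT all lie beyond 2-fold, between 1.08 and 1.28, while those of Tob1 spread with the background correction, those of Tob2 with the probe rule and those of Zc3h12a with both.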

How the data were processed

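Transcripts were measured on single-colour Agilent arrays, 1 per group, labelled from 100 ng RNA and lying on 1 slide read in 1 scan. The authors deposited scanner output of Agilent Feature Extraction 11.5.1.1 with the intensity of each spot and its local background, and a table of log2 values. The stated method is RMA in GeneSpring, but the deposited log2 values were found to be the processed signal scaled by the 75th percentile of each array, up to a constant. Coordinates in these files are on mm9.

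From the spot intensities, normexp background correction (offset 0), quantile normalization across the 4 arrays and log2 were computed with limma 3.58.1 and data.table (1.17.8) in R 4.3.3. Control spots and 115 to 160 flagged spots per array were left out. Python 3.11.15, pandas 2.3.3, numpy 2.4.6 and matplotlib 3.10.9 were used after that. The 10 genes were matched by the gene name in the files, other genes by transcript, symbol or synonym as RefSeq lists them for GRCm38.p6. Signals that did not clear local background were set no lower than the dimmest signal that did on the same array (3.07 to 3.45), which makes the difference a lower bound. Probes dim on both arrays of a comparison were left out of it. Genes were counted past 2-fold, and with 1 array per group there is no p-value. The spread comes from 300 probes with at least 5 spots. Counting was tested on simulated data, in which 200 genes well above background on every array were changed by well over 2-fold. Of these, 99.5% were recovered, and 40 unchanged genes were called. The simulation did not cover differences near 2-fold or the wider spread of dim probes.

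Every probe of the 10 genes is described. Genes of the decay list are named where past 2-fold in a comparison or where they have the highest or lowest WT difference of their group. Cnot6l, Cnot7, Cnot8, Cnot9 and Noct are named besides, after their values were seen. Target transcripts are named as listed. Some genes that this rule would name are counted but not reported here. The 10 genes, the lists and the motifs were chosen with earlier results of these data known. The comparisons share arrays.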

Additional observations from a re-analysis of the deposited data

How the results depend on the processing

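With 1 array per group and 4 arrays in all, the number of arrays limits the precision, and dim probes (Zc3h12a, Tob1) depend on the background correction. No paired analysis was possible because each group has 1 array, and leaving out a replicate was not possible for the same reason. The genes past 2-fold higher in WT were 2, and 1 with a normexp offset of 50 or with a gene's probes averaged. Those past 2-fold lower in WT were 2, with 0 for an offset of 50 or no background correction and 1 for the deposited value table. Those past 2-fold lower in Nr4a-TKO were 3, and 1 with scaling to the 75th percentile or with the deposited value table. A threshold of 1.5-fold gave 5 lower genes in each genotype and 2 higher in Nr4a-TKO, and 3-fold gave 0 in each of these counts and 0 higher in WT. No gene of the 10 was past 2-fold between genotypes under any alternative run, including 1.5-fold. For the list of other decay genes, scaling to the 75th percentile left 1 in place of 2 past 2-fold lower in WT and put 1 in place of 0 past 2-fold higher in Nr4a-TKO at 3 h. Of 280 recomputed differences of the 10 genes, 238 moved by less than the SD of 0.18 between repeated spots and 5 took the opposite sign, none of them past 2-fold as reported. The 238 include values that could not move. These are all those under the alternatives of the background filter, and those of genes with a single probe under averaging. The causes were not tested.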
